A study of Mus musculus with 19 samples.

Results

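The response to sleep deprivation in the locus coeruleus of mice labelled as CnB1 knockouts (CnB1KO) was described from 10 of the 19 RNA-sequencing libraries of the series. The members are the 5 libraries of the group CnB1KO_S6, which slept, and the 5 of the group CnB1KO_SD6, which were kept awake for 6 h, taken by the genotype and treatment in their labels. CnB1 is the regulatory subunit of calcineurin, a phosphatase that calcium and calmodulin switch on, and is encoded by Ppp3r1. The other 9 libraries came from control mice with the same sleep or deprivation (WT_S6, n = 4, and WT_SD6, n = 5), and are used for the estimate of spread and for the comparison between genotypes. Brains of all 4 groups were taken 4 weeks after injection of AAV-hSyn-Cre, a viral vector that carries the recombinase Cre behind a neuronal promoter, so glia and vessel cells are not its target. The locus coeruleus was cut from frozen thick sections, and each library holds poly(A) RNA of all cells in the piece. The labels name neither sex, age nor strain of the mice, nor the floxed allele or the hour of dissection.

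The locus coeruleus is the main noradrenergic nucleus of the brain, and its neurons fire during waking and fall nearly silent in sleep. Extended waking is known to raise circulating glucocorticoids in rodents, and these hormones act through a nuclear receptor on genes such as Sgk1, Per1 and Zbtb16 in neurons and glia. Prolonged waking is also known to change chaperone, clock and immediate early transcripts in brain. Calcineurin removes phosphate groups that kinases such as protein kinase A add, and among its substrates are transcription factors of the NFAT family.

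Levels are CPM, a gene's count relative to the TMM-scaled total of its library, given as mean ± SD over the 5 libraries of a group unless single libraries are listed. Slept libraries carry the numbers 11 to 15 and deprived libraries 16 to 20, as in the deposited table, and values are listed in that order. The total count was 3887298 to 7128244 in the slept and 5110285 to 6966490 in the deprived libraries, and library 13 was the shallowest. Fold changes are those fitted by edgeR. A gene rose or fell where its adjusted p from the edgeR quasi-likelihood test was under 0.05 over 14443 genes, and otherwise only its values are given. Ppp3r1 stood at 127, 125, 152, 121 and 120.4 in the slept and at 141, 123, 131, 130.2 and 137 CPM in the deprived libraries. Library 13 was higher than the other slept ones and the groups overlapped (adjusted p = 0.986). The level in the slept and deprived control groups was 161 ± 4.08 (n = 4) and 152 ± 10.9 (n = 5) CPM. All 5 slept CnB1KO libraries lay below all 4 slept control libraries, but most of this transcript was still counted, and from which cells it came cannot be told apart in this tissue. The noradrenergic markers Th, Dbh and Slc6a2 were present in all 10 libraries. Summed levels of the 12 cerebellar markers ran from 513 to 1529 CPM in the slept and 432 to 1799 CPM in the deprived libraries, a wide range within both groups.

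Of the 14443 genes 100 passed, 0.692% of those tested. They were 67 that rose (0.464%) and 33 that fell (0.228%). The median log2 change of all genes was -0.0055. Changes were mostly small, with a median of 1.41-fold among the risen and 1.36-fold among the fallen genes. All 100 genes kept their direction in every alternative fit, and 45 passed without any 1 of the 19 libraries. Changes of at least 2-fold were seen for 15 risen and 2 fallen genes. The 5 deprived libraries lay entirely above the 5 slept libraries for 63 of the 67 risen genes and entirely below them for 31 of the 33 fallen genes, against 1.38% and 1.28% of all genes. The genes were picked by their p in these same libraries, so this separation largely follows from the selection and is no added support. The adjusted p of the last gene inside the threshold was 0.0499 and that of the first outside it 0.0503.

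**Figure D1:**
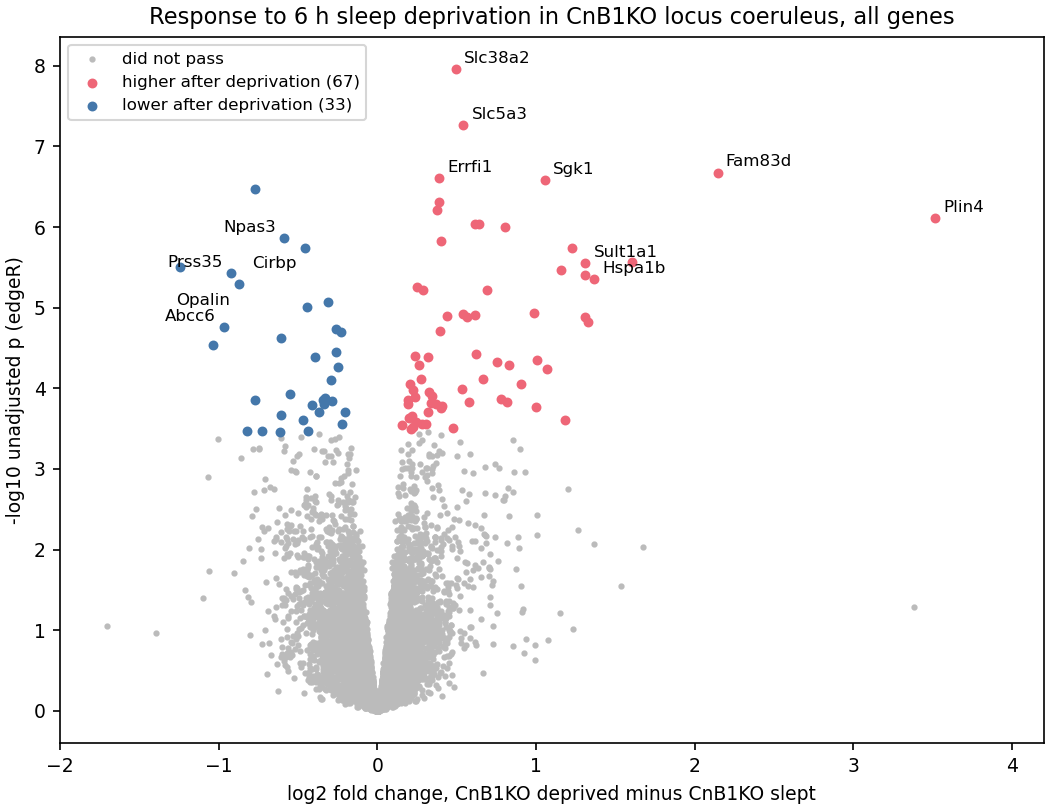
Each point is 1 of 14443 genes, with the log2 fold change of CnB1KO_SD6 over CnB1KO_S6 on the horizontal axis and -log10 of the unadjusted edgeR p on the vertical axis. The 67 risen genes are red and the 33 fallen genes blue. Plin4 stands apart on the right at a log2 change of 3.52, while Slc38a2, the gene with the smallest p, changed by 0.495.

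The largest rise was that of Plin4, a perilipin that coats lipid droplets (chromosome 17, 56100591 to 56109803, minus strand of GRCm38). Its level was 5.35, 8.49, 5.19, 7.05 and 5.61 CPM in the slept libraries and 53.5, 44.1, 80.6, 107 and 84.4 CPM in the deprived libraries. The lowest deprived library, 17, was far above the highest slept one, 12, and library 19 was the highest. The fitted change was 11.4-fold (log2 3.52, SE 0.49, adjusted p = 0.0012). With limma voom the adjusted p was 0.0748. Of the 17 measured genes of perilipins and lipid droplets, 1 other rose and none fell. That gene, Pnpla2, encodes the lipase that starts the breakdown of stored triglyceride, and went from 45.01 ± 1.68 to 59.5 ± 5.01 CPM (adjusted p = 0.0318). The list's median log2 change was 0.022, close to that of all genes. Plin3, the perilipin with the next smallest p, had a log2 change of 0.35 and did not pass (adjusted p = 0.0839). None of 26 genes of fuel switching and fatty acid oxidation passed. Among them Slc2a1, the glucose transporter of the blood-brain barrier, was at 129 ± 8.69 CPM after sleep and 151 ± 14.8 CPM after deprivation (adjusted p = 0.274) and Angptl4, an inhibitor of lipoprotein lipase, had a log2 change of 0.58 (adjusted p = 0.386).

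Plin4 is also 1 of 26 measured genes of a list of glucocorticoid-responsive transcripts, of which 13 rose and none fell. The list's median log2 change was 0.47, and 25 of its 26 genes lay above 0 against 47.2% of all genes. Sgk1, a kinase that regulates ion channels and transporters (chromosome 10, 21882184 to 21999903, plus strand of GRCm38), had 54.04, 54.3, 53.5, 51.9 and 65.03 CPM in the slept libraries and 78.8, 106, 132, 147 and 117 CPM in the deprived libraries. The groups did not overlap, although library 15 stood above the other slept libraries and library 16 was the lowest deprived one. Sgk1 rose 2.08-fold (adjusted p = 0.000748). Zbtb16, a zinc finger transcription factor, went from 27.6, 30.1, 24.02, 24.2 and 22.6 CPM to 39.4, 39.1, 62.2, 69.8 and 59.9 CPM. Libraries 16 and 17 were nearly equal and lower than the other deprived libraries, yet above all slept ones, and the rise was 2.09-fold (adjusted p = 0.0155). Map3k6, a stress-activated kinase, was at 5.06, 5.29, 4.37, 4.56 and 6.24 CPM after sleep and at 10.3, 10.5, 16.1, 15.1 and 11.7 CPM after deprivation, 2.48-fold higher (adjusted p = 0.00544). The groups did not overlap.

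The other risen members of this list rose by 1.29 to 2.48-fold. The remaining 13 of the 26 measured members did not pass, Fkbp5, Tsc22d3 and Klf9 among them. Hif3a, a member of the hypoxia-inducible factor family, went from 15.8, 14.7, 12.8, 12.2 and 17.5 CPM to 26.3, 32.7, 40.2, 50.8 and 31.7 CPM, with library 19 the highest (2.48-fold, adjusted p = 0.00261). It was the only 1 of 15 genes of that pathway to pass. Sult1a1, a sulfotransferase of phenols and catecholamines, went from 7.803, 6.41, 4.91, 7.75 and 7.49 CPM to 15.9, 14.9, 22, 16.3 and 17.5 CPM and its groups were clearly separate (2.48-fold, adjusted p = 0.00227). Cdkn1a, the cell cycle inhibitor p21, rose 1.99-fold from 22.2 ± 3.88 to 44.8 ± 8.22 CPM (adjusted p = 0.00544). Mertk, a receptor for engulfing dead cells and synapses on astrocytes and microglia, rose 1.56-fold and Nfkbia, the inhibitor of the transcription factor NF-kappaB, 1.54-fold. Errfi1, a feedback inhibitor of the epidermal growth factor receptor, had a small change but little spread, from 50.4 ± 2.83 to 66.1 ± 3.399 CPM (1.31-fold, adjusted p = 0.000748). Klf15, a transcription factor of amino acid and lipid metabolism, Gjb6, the astrocyte gap junction protein connexin 30, and the clock gene Per1 rose by 1.36, 1.32 and 1.29-fold. The receptor itself, Nr3c1, had a log2 change of -0.13 and was the only member below 0 (adjusted p = 0.33). Leaving out each library in turn left 11 to 14 risen genes in the list. This list was drawn up with earlier results of these libraries known, so its count is not independent evidence.

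Sequences are shown for the risen genes whose promoter windows hold the 13-base glucocorticoid response element. Of these, Sgk1 and Map3k6 belong to the hormone-responsive list and Tinagl1 does not. Whether the motif has a part in their rises was not tested. The window spans 250 bases before to 50 after the gene start in RefSeq (GRCm38.p6), and 84 of the 100 genes that passed have such a window. The motif searched was GNACA, 3 bases of any kind and TGTNC, on both strands, and the capitals mark the match. It occurred in 3 of the 56 risen genes with a window (5.36%), in none of the 28 fallen genes, and in 0.537% of all 27025 genes with a window. For Sgk1 the RefSeq start lies inside the longer gene model whose coordinates are given above. The share was 0.407% among the measured genes. The shorter glucocorticoid half-site AGAACA was no more frequent among the risen genes (12.5%) than among the fallen (14.3%) or the measured genes (14.7%).
Sgk1, chr10:21993640-21993939, plus strand, match from 188 bases before the start: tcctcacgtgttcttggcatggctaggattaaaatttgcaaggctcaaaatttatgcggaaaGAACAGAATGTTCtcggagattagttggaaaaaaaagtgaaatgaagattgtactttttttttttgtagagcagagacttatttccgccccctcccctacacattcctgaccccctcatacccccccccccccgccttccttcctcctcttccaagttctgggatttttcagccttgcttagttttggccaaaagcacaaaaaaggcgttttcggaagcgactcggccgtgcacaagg
Map3k6, chr4:133240568-133240867, plus strand, match from 181 bases before the start: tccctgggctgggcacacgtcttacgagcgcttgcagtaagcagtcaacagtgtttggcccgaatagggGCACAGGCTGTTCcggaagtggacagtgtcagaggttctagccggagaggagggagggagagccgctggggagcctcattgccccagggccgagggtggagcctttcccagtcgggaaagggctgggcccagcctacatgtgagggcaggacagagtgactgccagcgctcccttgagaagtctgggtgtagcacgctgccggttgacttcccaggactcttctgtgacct
Tinagl1, chr4:130174753-130175052, minus strand, match from 147 bases before the start: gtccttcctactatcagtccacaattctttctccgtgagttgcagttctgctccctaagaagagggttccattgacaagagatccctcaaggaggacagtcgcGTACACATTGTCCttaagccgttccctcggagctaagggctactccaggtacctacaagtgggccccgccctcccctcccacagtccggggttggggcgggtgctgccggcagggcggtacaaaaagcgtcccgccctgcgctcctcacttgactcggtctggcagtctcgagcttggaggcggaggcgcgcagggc

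Tinagl1, a secreted matrix protein that is not in the hormone list, rose 1.45-fold from 16.4 ± 2.47 to 23.9 ± 3.297 CPM (adjusted p = 0.0252). Of the 22 list members with a window 4 held the motif, namely Sgk1, Map3k6, Fam107a and Mt1. The metallothionein Mt1 was at 40.97 ± 4.91 CPM after sleep and 46.4 ± 4.15 CPM after deprivation and did not pass (adjusted p = 0.51). Plin4, Zbtb16 and the other risen members had no match in these windows, which says nothing about sites elsewhere.

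**Figure D2:**
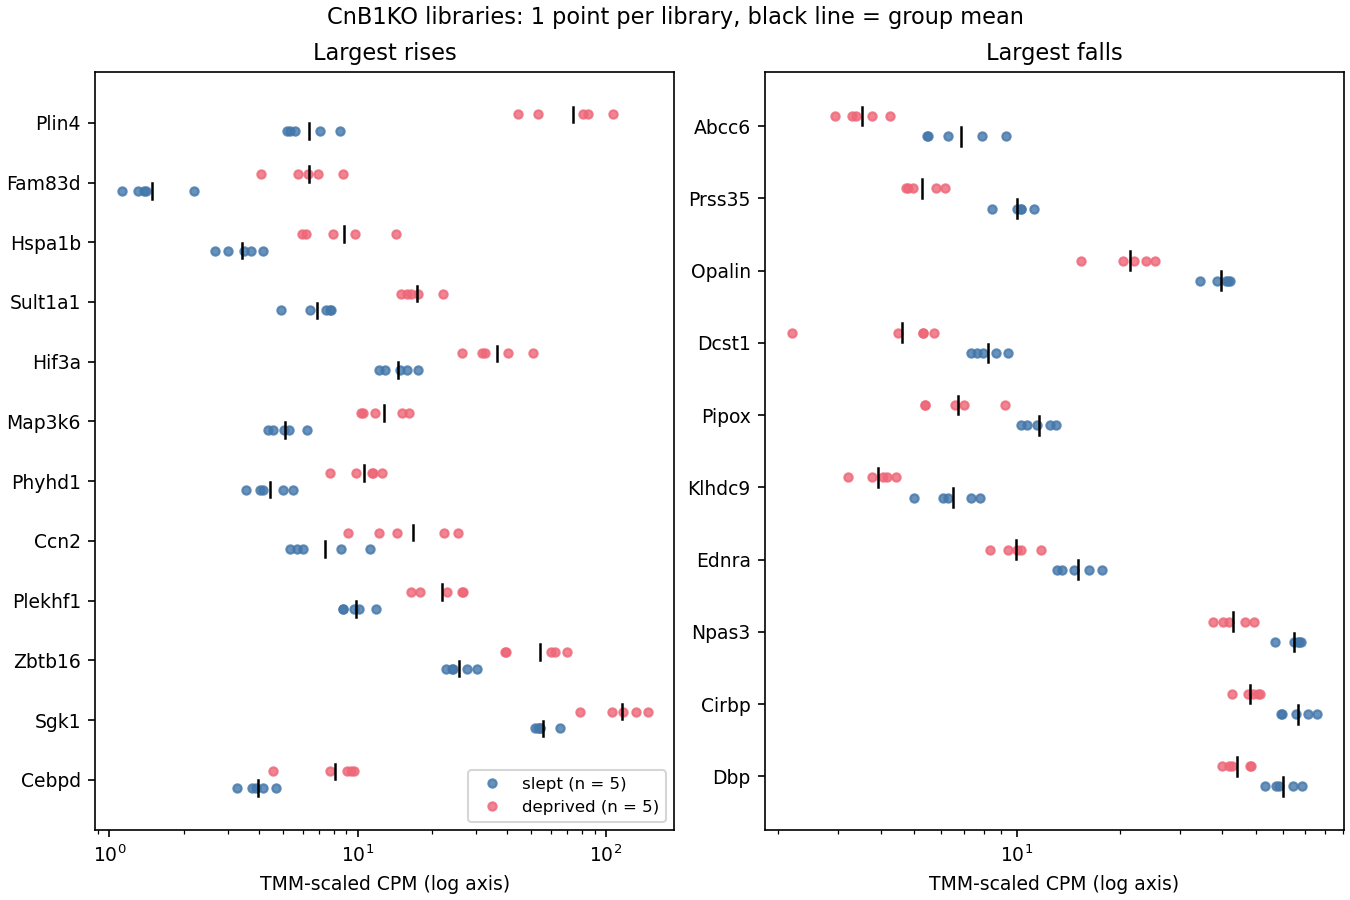
TMM-scaled CPM on a log axis for the 12 largest rises and 10 largest falls with an approved symbol, 1 point per library, slept in blue and deprived in red, with black lines for group means. Groups overlap for Ccn2 and Cebpd among the rises and for none of the falls shown.

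Further large rises came from genes outside that list. Fam83d, which places proteins on the mitotic spindle, had 1.3, 1.12, 2.18, 1.38 and 1.404 CPM in the slept libraries and 4.09, 6.303, 6.95, 8.702 and 5.77 CPM in the deprived libraries. Library 13 was higher than the other slept libraries, but the groups did not overlap, and the change was 4.42-fold (adjusted p = 0.000748). Of 15 measured cell cycle genes Fam83d and Cdkn1a rose and none fell, and Ccnd1, cyclin D1, had a log2 change of -0.38 (adjusted p = 0.0961). Other genes of this list, such as Mki67, Top2a and Cdk1, have no count. Phyhd1, a dioxygenase, went from 5.49, 4.17, 3.55, 4.98 and 4.05 CPM to 9.81, 7.74, 11.4, 11.5 and 12.5 CPM without overlap (2.34-fold, adjusted p = 0.00163). Plekhf1, a protein of endosomes and lysosomes, went from 9.68, 11.9, 8.73, 10.1 and 8.73 CPM to 17.8, 22.9, 26.2, 26.5 and 16.3 CPM without overlap (2.23-fold, adjusted p = 0.00243). The secreted matrix protein Ccn2 was less uniform, at 5.35, 11.2, 6.005, 5.67 and 8.58 CPM after sleep and 9.15, 22.2, 25.3, 14.4 and 12.1 CPM after deprivation. Its highest slept library, 12, lay above its lowest deprived library, 16 (2.27-fold, adjusted p = 0.0407). The transcription factor Cebpd also overlapped, at 3.76, 4.17, 3.27, 4.702 and 3.899 CPM and 4.58, 7.74, 9.698, 9.06 and 9.36 CPM, because library 16 stayed within the slept range (2.01-fold, adjusted p = 0.0136).

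Chaperones of the endoplasmic reticulum formed a second group. Of 25 measured genes 5 rose and none fell, with a median log2 change of 0.12, and all 25 values lay above 0. Of all genes 0.464% rose and 47.2% lay above 0. This list too was chosen with earlier results of these data known, so its counts are not independent evidence. Sdf2l1, a co-chaperone of the lumenal Hsp70, had 13.4, 12.3, 12.3, 14.7 and 14.2 CPM in the slept libraries and 21.4, 22.6, 21.9, 17.8 and 19.3 CPM in the deprived libraries. The groups were separate and the rise was 1.53-fold (adjusted p = 0.0012). Pdia4, a disulfide isomerase, rose 1.26-fold from 58.5 ± 2.84 to 74.1 ± 6.005 CPM, with library 16 the highest (adjusted p = 0.0298). The co-chaperones Dnajb11 and Dnajc3 rose 1.17 and 1.16-fold, and Herpud1, which serves the degradation of misfolded proteins, 1.15-fold. Derl3, another degradation gene, had the largest change of the list at a log2 of 1.201 and did not pass (adjusted p = 0.124). The count of 5 fell to 1 without slept library 11 or 14 or deprived library 16 or 18, Sdf2l1 passing without each of the 19 libraries.

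The endoplasmic reticulum stress element, searched as CCAAT, 9 bases of any kind and CCACG on both strands, was present in the windows of 9 of the 21 chaperone genes that have one (42.9%), against 0.137% of all genes. Dnajc3 was the only 1 of the 5 risen members with a match and is shown for that reason, with the element in capitals.
Dnajc3, chr14:118937682-118937981, plus strand, match from 105 bases before the start: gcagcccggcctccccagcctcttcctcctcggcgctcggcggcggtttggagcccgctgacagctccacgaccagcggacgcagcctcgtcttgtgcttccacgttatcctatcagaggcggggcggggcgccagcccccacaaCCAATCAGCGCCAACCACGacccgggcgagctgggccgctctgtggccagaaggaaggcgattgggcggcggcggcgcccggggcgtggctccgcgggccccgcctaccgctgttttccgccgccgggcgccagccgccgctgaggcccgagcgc

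Cytosolic heat shock genes were the third group. Of 24 measured genes 3 rose, none fell, the median log2 change was 0.12 and all 24 values lay above 0. The shares over all genes were 0.464% risen and 47.2% above 0. The choice of this list with earlier results known limits its counts in the same way. Hspa1b, a stress-inducible Hsp70, had 3.47, 4.17, 3.002, 3.73 and 2.65 CPM after sleep and 14.2, 9.74, 7.96, 6.22 and 5.97 CPM after deprivation. Library 16 was the highest and all deprived libraries exceeded all slept ones (2.58-fold, adjusted p = 0.00277). Hspa1b has a near-identical neighbour, Hspa1a, whose log2 change was 0.45 (adjusted p = 0.252), so the split of reads between them is uncertain. The small heat shock protein gene Hspb1 rose 1.77-fold from 8.23 ± 1.32 to 14.4 ± 2.71 CPM and the Hsp40 gene Dnajb1 1.25-fold from 63.8 ± 4.29 to 79.5 ± 5.21 CPM. The constitutive Hspa8 had a log2 change of 0.0080 (adjusted p = 1). The count of 3 was 1 without deprived library 18. The heat shock element, searched on both strands as GAA, TTC and GAA with 2 bases of any kind between them, occurred in 5 of 19 windows of this list (26.3%, against 0.662% of all genes) and in none of the 3 risen members.

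Clock genes moved in both directions. Of 23 measured genes 2 rose and 1 fell, with a median log2 change of -0.044. Per1, a repressor of the clock that light, activity and glucocorticoids induce, had 77.2, 71.6, 73.7, 72.7 and 69.2 CPM in the slept libraries and 114, 84.4, 87.1, 94.8 and 89.8 CPM in the deprived libraries. The groups did not overlap and library 16 was the highest (adjusted p = 0.0298). Npas2, a partner of Bmal1 in the activating arm, went from 11.99, 13.8, 11.5, 13 and 11.7 CPM to 20.9, 19.5, 18.7, 17.2 and 18.9 CPM, 1.53-fold higher without overlap (adjusted p = 0.00544). Dbp, a clock output transcription factor that Clock and Bmal1 drive, went from 57.2, 68.4, 64.1, 58.5 and 53.2 CPM to 48.1, 39.8, 48.5, 42.6 and 41.8 CPM. All deprived libraries lay below all slept ones, a 1.36-fold fall (adjusted p = 0.00489). Per3, at 96.7 ± 6.85 CPM after sleep and 79.1 ± 7.74 CPM after deprivation, did not pass (adjusted p = 0.069), but did so in 4 of 13 other fits and without library 16 or control library 7 (lowest adjusted p = 0.0194). The call for Per1 was lost in 7 of the 19 fits that each left out a library, and those for Npas2 and Dbp in none.

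The E-box that Clock and Bmal1 bind, CACGTG, was found in the windows of 3 risen genes, Per1, Klf15 and Sgk1, which is 5.36% of the 56 and less than the 11.5% among measured genes. The windows of Per1 and Klf15 are shown because the first is a clock gene and the second holds 3 copies, in capitals.
Per1, chr11:69098699-69098998, plus strand, E-box from 166 bases before the start: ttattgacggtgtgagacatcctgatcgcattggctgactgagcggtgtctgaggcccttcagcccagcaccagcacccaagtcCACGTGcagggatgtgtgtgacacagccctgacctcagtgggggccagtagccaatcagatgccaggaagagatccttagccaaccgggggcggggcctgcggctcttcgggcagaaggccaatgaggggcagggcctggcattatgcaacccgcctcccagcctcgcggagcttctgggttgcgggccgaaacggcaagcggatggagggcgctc
Klf15, chr6:90462326-90462625, plus strand, first E-box from 228 bases before the start: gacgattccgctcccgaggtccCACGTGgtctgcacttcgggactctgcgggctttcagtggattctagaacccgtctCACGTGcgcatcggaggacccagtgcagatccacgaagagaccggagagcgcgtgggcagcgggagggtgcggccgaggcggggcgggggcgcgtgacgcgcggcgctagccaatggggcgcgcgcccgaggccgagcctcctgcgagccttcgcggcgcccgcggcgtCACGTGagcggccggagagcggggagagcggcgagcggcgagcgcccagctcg

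Cirbp, the cold-inducible RNA-binding protein whose transcript follows brain temperature inversely, had 59.5, 65.8, 75.9, 71.2 and 59.7 CPM after sleep and 50.7, 42.7, 49.1, 47.6 and 51.4 CPM after deprivation. The groups were separate, and it fell by a factor of 1.37 (adjusted p = 0.00163). It was the only 1 of 5 genes of its list to pass. Rbm3, the other classic cold-inducible gene, was at 40.7, 37.6, 43.9, 47.4 and 40.7 CPM and 48.1, 37.8, 37.3, 37.5 and 38.2 CPM (adjusted p = 0.976), where library 16 was above all slept libraries and the other deprived libraries lay close to the lowest slept one.

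The genes with the smallest p-values were 2 transporters. Slc38a2, a sodium-coupled carrier of neutral amino acids (chromosome 15, 96687392 to 96699730, minus strand of GRCm38), had 214, 216, 227, 202 and 227 CPM in the slept libraries and 278, 298, 320.3, 322 and 312 CPM in the deprived libraries. The gap between the groups was larger than the spread within either, and the rise was 1.41-fold (SE of log2 0.052, adjusted p = 0.000157). Slc5a3, the sodium-coupled carrier of the osmolyte myo-inositol (chromosome 16, 92058322 to 92087473, plus strand of GRCm38), went from 138, 130.4, 117, 134 and 140.2 CPM to 189, 196, 213, 189 and 176 CPM, 1.46-fold (adjusted p = 0.000392). Both carriers are known targets of the osmotic stress factor Nfat5, whose own transcript was at 309 ± 5.85 CPM after sleep and 283 ± 22.4 CPM after deprivation and did not pass (adjusted p = 0.352). Mfsd2a, which carries lysophosphatidylcholine with omega-3 fatty acids across brain endothelium, rose 1.69-fold from 46.7 ± 5.66 to 78.7 ± 11.1 CPM (adjusted p = 0.0139). The lipid flippase gene Atp10a rose 1.61-fold and the mitochondrial carrier gene Slc25a34 1.49-fold. Gpt2, the mitochondrial alanine transaminase, rose 1.32-fold from 82.8 ± 5.304 to 109.5 ± 5.44 CPM (adjusted p = 0.00152), and Adipor2, an adiponectin receptor, 1.46-fold from 116 ± 9.59 to 169 ± 23.8 CPM (adjusted p = 0.00544). Per length of transcript, Htra1 and Slc38a2 were the most abundant risen genes, at 61.4 and 55.7 FPKM after deprivation, and Gpr182 was among the least, at 1.29 FPKM. These were grouped after their values had been seen.

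Growth factor signalling, matrix and cytoskeleton supplied other risen genes. Igfbp3, which binds insulin-like growth factors, rose 1.75-fold from 12.3 ± 1.39 to 21.7 ± 2.87 CPM (adjusted p = 0.0012), and the receptor gene Igf1r 1.14-fold from 182 ± 3.56 to 208 ± 9.67 CPM (adjusted p = 0.0296). Spry4, an inhibitor of receptor tyrosine kinase signalling, rose 1.33-fold, Plcb1, a phospholipase C downstream of G protein-coupled receptors, 1.19-fold, and the clathrin adaptor gene Hip1 1.299-fold. P4ha1, which hydroxylates collagen prolines, rose 1.31-fold from 64.1 ± 3.45 to 83.8 ± 3.67 CPM (adjusted p = 0.001). Htra1, a secreted protease, Sdc4, a cell surface proteoglycan, and Tns3, a focal adhesion protein, rose 1.25, 1.25 and 1.22-fold. Dok3, an adaptor of immune receptors, rose 1.76-fold, Paqr5, a membrane progestin receptor, 1.71-fold, and Gpr182, a receptor of endothelial cells, 1.58-fold. The remaining 14 risen genes with an approved symbol, Mkks, Zbtb40, Cables1, Nxn, Arid5b, Ncbp3, Ndufb2, Zfp24, Itpk1, Hexim1, Zcchc24, Zhx3, Tpm4 and Lman2, changed by 1.11 to 1.48-fold.

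Among the fallen genes Opalin, a membrane protein of myelinating oligodendrocytes (chromosome 19, 41061710 to 41077113, minus strand of GRCm38), was 1 of the 10 with the largest changes. It was at 41.04, 41.5, 42.03, 34.3 and 38.7 CPM in the slept libraries and at 15.4, 23.9, 25.3, 20.4 and 22.1 CPM in the deprived libraries. The groups were far apart, library 16 was the lowest, and the change was 1.83-fold lower (adjusted p = 0.00309). The other 17 myelinating oligodendrocyte markers did not pass, and the median log2 change of all 18 was -0.015. Their summed level was 2559 to 3937 CPM in the slept and 2643 to 3260 CPM in the deprived libraries. In tissue of mixed cells, fewer cells of a type and less RNA per cell cannot be told apart. Of the 18 markers 8 lay above 0, the highest being Hapln2 at a log2 change of 0.26 (adjusted p = 0.609), and 10 below 0, the lowest after Opalin being Ninj2 at -0.35 (adjusted p = 0.689). The alternatives included a covariate from these markers without Opalin, Ninj2 and Aspa. Over all alternatives the log2 change of Opalin ran from -0.951 to -0.721 and its adjusted p was at most 0.0125.

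Abcc6, an efflux transporter, went from 5.49, 9.29, 6.28, 7.88 and 5.46 CPM to 2.94, 3.29, 3.76, 4.26 and 3.38 CPM without overlap (1.95-fold lower, adjusted p = 0.00679). Prss35, a secreted serine protease homologue, went from 10.3, 10.3, 8.46, 11.2 and 9.98 CPM to 4.74, 6.2, 5.79, 4.79 and 4.98 CPM without overlap (1.895-fold lower, adjusted p = 0.00258). Npas3, a neuronal and glial transcription factor of the bHLH-PAS family, went from 67.05, 67.8, 57.05, 64.9 and 66.7 CPM to 37.6, 49.4, 46.6, 41.7 and 40.02 CPM. Library 13 was the lowest slept one yet still above every deprived library (1.503-fold lower, adjusted p = 0.00151). Pipox, a peroxisomal oxidase of sarcosine and pipecolic acid, went from 10.7, 12.5, 11.5, 13 and 10.3 CPM to 5.39, 7.02, 9.26, 6.57 and 5.38 CPM, where library 18 came closest to the slept ones (1.71-fold lower, adjusted p = 0.0296). Dcst1, a membrane protein, went from 7.95, 9.45, 7.64, 8.71 and 7.33 CPM to 5.72, 5.3, 4.49, 5.33 and 2.19 CPM, with library 20 the lowest (1.77-fold lower, adjusted p = 0.0494). Klhdc9, a kelch domain protein, went from 7.803, 6.09, 6.28, 7.33 and 4.99 CPM to 3.76, 4.44, 4.05, 3.197 and 4.18 CPM (1.65-fold lower, adjusted p = 0.0493). Both had separate groups but adjusted p-values close to the threshold, and passed in only 4 and 5 of the 19 fits that each left out a library. Ankrd44, Armcx5, Paqr6, a membrane progestin receptor, Tlcd1 and Zkscan2 were 1.22 to 1.32-fold lower.

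Ednra, the endothelin A receptor of vascular smooth muscle and pericytes, had 13.6, 17.8, 13.1, 16.3 and 14.7 CPM after sleep and 8.34, 10.03, 10.3, 9.41 and 11.7 CPM after deprivation, 1.52-fold lower without overlap (adjusted p = 0.0365). It was the only 1 of 10 measured pericyte and smooth muscle markers to pass, with a list median of -0.011. The summed marker level was 424 to 516 CPM in the slept and 414 to 553 CPM in the deprived libraries. Notch3, a receptor of the same mural cells that is not in the list, fell from 109 ± 8.96 to 86.9 ± 6.93 CPM, with library 13 below library 19 so that the groups overlapped (1.26-fold lower, adjusted p = 0.0292). RNA-processing genes among the fallen were Parn, a poly(A)-specific ribonuclease (1.201-fold lower, adjusted p = 0.0119), and Pspc1, a paraspeckle protein (1.17-fold lower, adjusted p = 0.0441). Acss1, a mitochondrial acetyl-CoA synthetase, was 1.29-fold lower, Sfrp5, a secreted inhibitor of Wnt signalling, 1.35-fold lower, and Xylt2, which starts glycosaminoglycan chains on proteoglycans, 1.24-fold lower. Ddhd1, a phospholipase, and Exoc2, a subunit of the exocyst, were 1.15 and 1.19-fold lower.

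None of 24 measured immediate early genes passed in CnB1KO, and their median log2 change was 0.045. Fosl1, Egr2, Egr4 and Atf3 of this list have no count and were not tested. Fos had 9.54, 12.5, 6.55, 12.2 and 12.5 CPM in the slept libraries and 37.4, 15.6, 12.2, 11.9 and 11.2 CPM in the deprived libraries. Library 16 was far above the rest, while the other deprived libraries overlapped the slept ones (adjusted p = 0.472). Fosb was at 2.17, 2.72, 0.819, 1.66 and 2.495 CPM and 5.07, 3.44, 3.04, 3.91 and 2.79 CPM, so that all deprived libraries exceeded all slept ones, but it did not pass (adjusted p = 0.185). Fosl2 was at 16.6 ± 2.86 CPM after sleep and 25.03 ± 6.52 CPM after deprivation (adjusted p = 0.069), Dusp1, a phosphatase of MAP kinases, at 24.9 ± 3.67 CPM after sleep and 34.7 ± 6.174 CPM after deprivation (adjusted p = 0.216) and Bdnf, the neurotrophin, at 23.1 ± 2.87 CPM after sleep and 28 ± 2.16 CPM after deprivation (adjusted p = 0.293). Arc and Homer1, which act at synapses, had log2 changes of 0.021 and 0.13. Fosl2 passed in some other fits (DESeq2, the 3 marker covariates and without deprived library 19, lowest adjusted p = 0.0194), so the count of 0 depends on the fit. In the control mice 4 of the 24 passed, with a median of 0.38. These counts and medians are no test of a difference between genotypes. For Fos, Dusp1 and Bdnf the log2 difference of the response, CnB1KO minus WT, was -0.62 (SE 0.46, unadjusted p = 0.187), -0.44 (SE 0.22, unadjusted p = 0.0578) and -0.31 (SE 0.15, unadjusted p = 0.0474) in edgeR. None of these, and no gene of the list, passed after adjustment over all genes. The differences of the remaining list genes are not given here.

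No gene passed in the lists around calcineurin. In the list of calcineurin subunits, regulators and related factors 0 of 23 passed (median log2 -0.022). The values nearest to the threshold were those of Cabin1 and Nfat5. Cabin1, a calcineurin inhibitor, was at 147 ± 6.07 CPM after sleep and 134 ± 10.5 CPM after deprivation (adjusted p = 0.311). Nfat5 is the osmotic stress factor named above, listed for its family name and not as a calcineurin target. Likewise 0 of 20 protein kinase A genes (median -0.019) and 0 of 19 genes of the LKB1, SIK and HDAC pathway (median 0.0020) passed. Pde4d and Pde4b, which degrade cyclic AMP, had log2 changes of -0.14 and -0.11 (adjusted p = 0.39 and 0.513). None of 16 noradrenergic genes passed. Th, the first enzyme of noradrenaline synthesis, had 131, 87.5, 138, 120.0 and 128 CPM after sleep and 105, 110.3, 116, 153 and 148 CPM after deprivation, and Slc6a2, the noradrenaline transporter, 479, 314, 550.0, 449 and 480.0 CPM and 403, 394, 392, 528 and 522 CPM. Both overlapped, and library 12 was the lowest for each. Dbh, which makes noradrenaline from dopamine, was at 223 ± 45.5 CPM after sleep and 226 ± 32.1 CPM after deprivation (adjusted p = 1), and the neuropeptide gene Gal at 29.5 ± 5.98 CPM after sleep and 34.5 ± 6.49 CPM after deprivation (adjusted p = 0.919). The fitted log2 changes of Th, Dbh, Slc6a2 and Arc were 0.07 or less in size and changed sign under some alternatives, so no direction is given for them.

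Among the remaining lists no gene passed for 30 synaptic genes, 23 wake-related receptors, 25 nuclear oxidative phosphorylation genes, 30 ribosomal protein genes and 4 metallothionein genes, whose medians lay between -0.03 and 0.11. Ndufb2, a nuclear-encoded subunit of respiratory complex I that is not in the list of 25, rose 1.198-fold from 52.2 ± 4.12 to 62.7 ± 2.36 CPM (adjusted p = 0.0147). Of 20 cholesterol synthesis genes 18 lay below 0, with a median of -0.085 and no gene passing. Dhcr7, which completes cholesterol synthesis, was at 74.5 ± 3.102 CPM after sleep and 65.01 ± 2.68 CPM after deprivation with separate groups (adjusted p = 0.163), and Mvk, mevalonate kinase, at 35.9 ± 1.88 CPM after sleep and 30.3 ± 2.53 CPM after deprivation with separate groups (adjusted p = 0.153). With the noradrenergic covariate both passed (adjusted p = 0.025 and 0.0485), and Dhcr7 also with the cerebellar covariate. Of 15 interferon-induced genes 11 lay below 0, with a median of -0.23. Ifit2 was at 27.2 ± 3.62 CPM after sleep and 21.9 ± 2.25 CPM after deprivation (adjusted p = 0.226) and Ifitm3 at 17.5 ± 2.49 CPM after sleep and 13.3 ± 2.35 CPM after deprivation (adjusted p = 0.305).

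**Figure D3:**
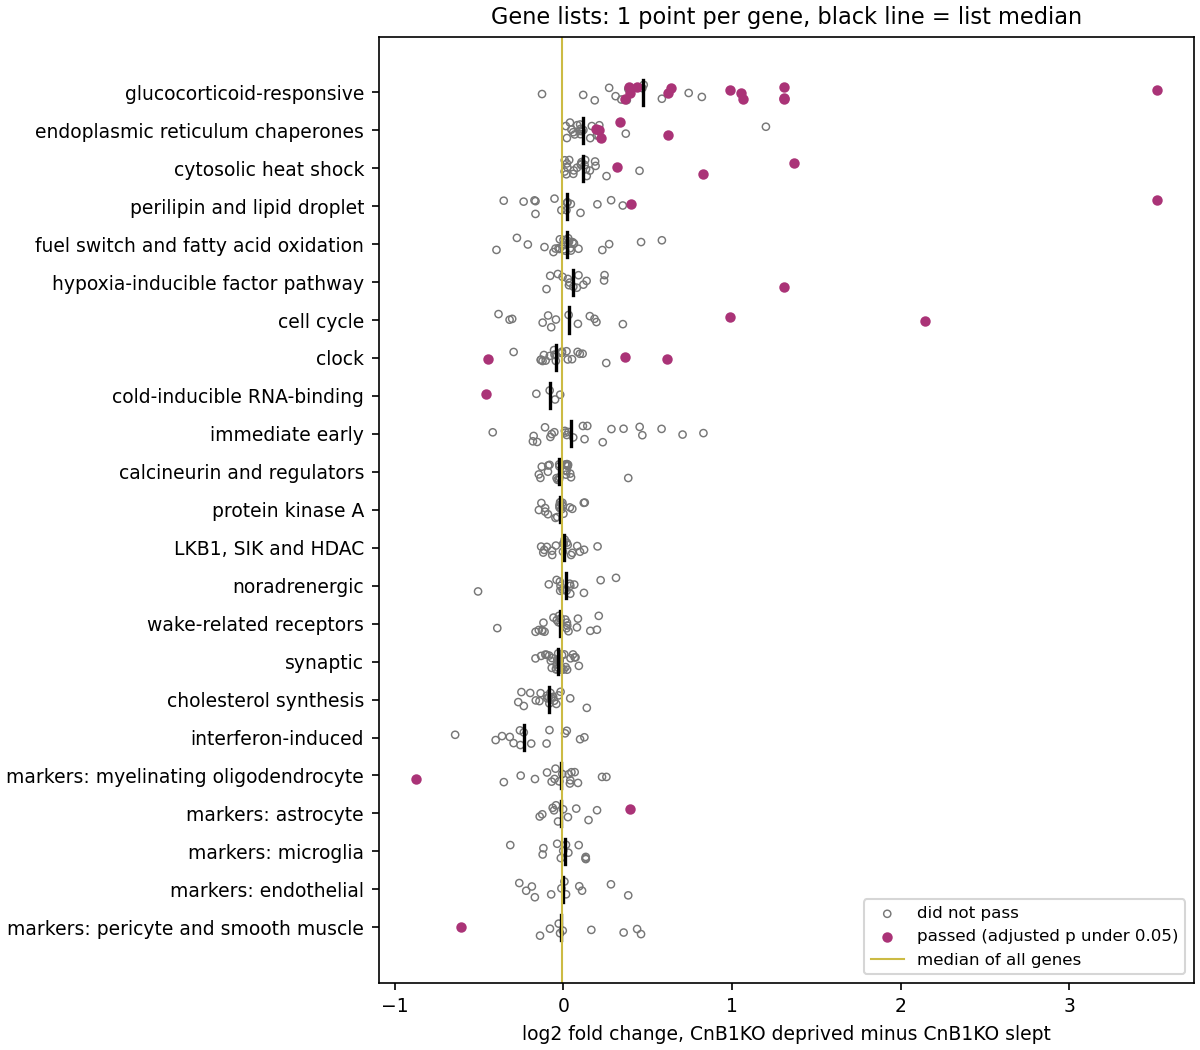
Log2 fold change of CnB1KO_SD6 over CnB1KO_S6 for the measured genes of 23 lists, 1 point per gene, filled where the gene passed, with a black line at each list's median and a yellow line at the median of all genes. The glucocorticoid-responsive list has a median of 0.47 and 13 filled points, and both chaperone lists lie wholly to the right of 0.

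Markers of other cells seldom passed. Of 12 astrocyte markers 1 passed, Gjb6, and the summed level was 2831 to 3488 CPM in the slept and 2889 to 3158 CPM in the deprived libraries. None passed among 12 microglial, 12 endothelial, 12 general neuronal, 11 oligodendrocyte precursor or 5 blood markers, with medians from -0.028 to 0.028. Single libraries stood out for markers of neighbouring tissue. The choroid plexus markers Ttr and Kl were high in deprived library 18, where Kl reached 106 CPM against 12.6, 7.85, 9.28, 10.4 and 10.6 CPM in the slept libraries and 15.8 CPM in the next deprived one. The summed ependymal and choroid plexus level was 96.1 to 130 CPM in the slept and 73.2 to 367 CPM in the deprived libraries. The serotonergic genes Tph2 and Slc6a4 were highest in slept library 13, at 62.8 and 42.6 CPM. Without library 18 the counts were 33 risen and 21 fallen genes, and without library 13 they were 49 and 30. Library 18 was the highest deprived library for 25 of the 67 risen genes and library 16 the lowest for 24. The part of such tissue in these counts was not tested beyond these fits.

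The response was then set beside that of the control mice, which shares no library with it but shares the estimate of spread. In WT 165 genes passed (1.14% of those tested), and 66 of the 100 genes of CnB1KO were among them, 51 that rose and 15 that fell. All 100 had the same direction in WT, and 164 of the 165 WT genes had the same direction in CnB1KO. The median log2 change of the 67 risen genes was 0.49 in CnB1KO and 0.44 in WT, and that of the 33 fallen genes -0.45 and -0.33. Since the genes were chosen by passing in CnB1KO, these medians are no test of a difference. Plin4 rose 10.5-fold in WT and 11.4-fold in CnB1KO, Sgk1 1.97-fold and 2.08-fold, and Opalin was 2.43-fold lower in WT and 1.83-fold lower in CnB1KO. No gene passed the edgeR test of the difference between the responses (0 of 14443, and 1.99% at an unadjusted p under 0.05). The count was also 0 with limma voom and was 1 with DESeq2.

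That gene was Gm15446, a provisional symbol (chromosome 5, 109923400 to 109943936, plus strand of GRCm38). It had 25.6, 37.6, 38.5, 39.8 and 35.4 CPM in the slept and 21.6, 20.9, 20.3, 19.5 and 21.1 CPM in the deprived CnB1KO libraries. Library 11 was the lowest slept one, and the groups did not overlap (1.71-fold lower, adjusted p = 0.000804). In WT it stood at 39.1, 41.05, 40.2 and 39.6 CPM in the 4 slept and 32.8, 39.6, 43.9, 42.2 and 37.9 CPM in the 5 deprived libraries, which overlapped. The log2 difference of the responses was -0.74 (SE 0.14, unadjusted p = 4.71e-05, adjusted p = 0.681 in edgeR). It passed with DESeq2 (adjusted p = 0.0361) and without slept library 11 (adjusted p = 0.00201), over a range of 0.00201 to 1 in 25 alternatives. Gm15446 is annotated as protein coding and overlaps a non-coding gene on the opposite strand by 82 bases.

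The next smallest p among genes that passed in CnB1KO was that of Carmil1, a regulator of actin capping, at 81.1, 83.9, 77.5, 87.8 and 77.7 CPM after sleep and 70.8, 72.2, 66.6, 64.6 and 66.1 CPM after deprivation. It fell in CnB1KO without overlap (1.2-fold lower, adjusted p = 0.00696) and had a log2 change of -0.037 in WT, and the difference was -0.23 (SE 0.067, unadjusted p = 0.00323). For Cuedc1, a little-studied ubiquitin-binding domain protein, and Acss1 the differences were -0.17 and -0.31 (unadjusted p = 0.0106 and 0.0169). Of the 9 genes with an unadjusted p under 0.05, 8 had fallen and 1, Slc38a2, had risen. The 100 genes were chosen by passing in CnB1KO, so this count is no test of a difference. Outside the 100 genes, Klf2, a flow-responsive transcription factor of endothelium, had log2 changes of 0.28 in CnB1KO and 0.896 in WT (unadjusted p of the difference 0.0028), and Nfkb1 of -0.11 and 0.12 (unadjusted p = 0.0016). None of these differences passed after adjustment.

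**Figure D4:**
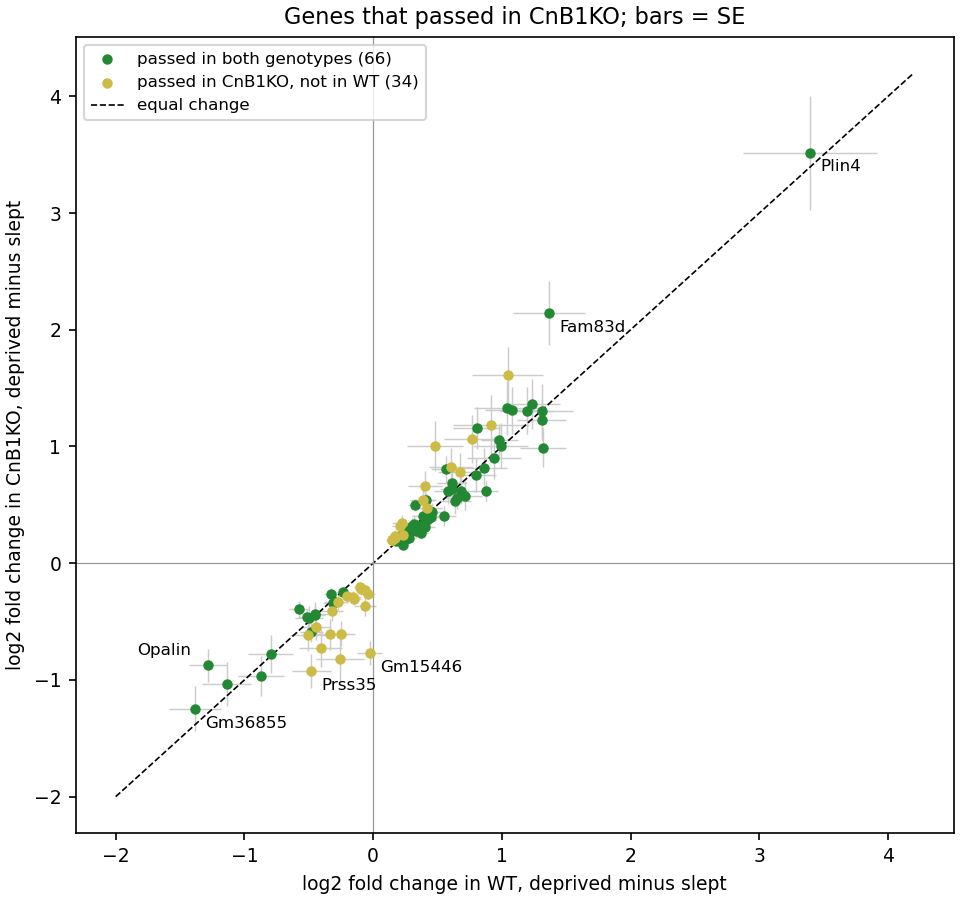
Log2 fold change after deprivation in WT (horizontal axis) and in CnB1KO (vertical axis) for the 100 genes that passed in CnB1KO, with bars of 1 SE and a dashed line of equal change, green for the 66 that also passed in WT and yellow for the other 34. All 100 points lie in the 2 quadrants of equal sign, and Gm15446 lies well below the line, with a log2 change of -0.77 in CnB1KO and -0.028 in WT.

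The deposited FPKM tables list 42298 symbols with no entry in the count table, and 3126 of them had a mean of at least 1 FPKM and could be tested with limma on log2(FPKM + 0.1). Of these 2 passed (0.064%), both on chromosome 9. Both reached that mean only through the deprived libraries, so their count among the symbols tested is no result in itself. Without the filter Gm43089 passed (adjusted p = 8.1e-07) and Fbxw23 did not (adjusted p = 0.0607). Gm43089, a processed pseudogene (chromosome 9, 109541701 to 109542913, minus strand), was listed at 0 in all 5 slept libraries and at 3.87, 4.78, 6.79, 6.73 and 6.32 FPKM in the deprived libraries (adjusted p = 3.86e-05). In WT it was listed at 0 in all 4 slept libraries and at 4.11, 3.82, 0, 3.46 and 5.45 FPKM in deprived libraries 6 to 10. Fbxw23, annotated as a transcribed unprocessed pseudogene (chromosome 9, 109516388 to 109534858, minus strand), had 0.329, 0.270, 0, 0.303 and 0.338 FPKM after sleep and 2.05, 2.13, 4.27, 2.77 and 3.65 FPKM after deprivation in CnB1KO. Its groups did not overlap, and the log2 change on the FPKM + 0.1 scale was 3.26 (SE 0.47, adjusted p = 0.0329). In WT it ran from 0 to 0.664 FPKM after sleep and from 0.948 to 2.66 FPKM after deprivation.

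Gm43089 passed without each of the 10 libraries (adjusted p = 1.18e-05 to 0.00772), whereas Fbxw23 passed only without library 13 (adjusted p = 0.00199 to 0.244 over the 10 fits). Both symbols entered the test only through their deprived libraries, so these fits are no independent support. The 2 annotated genes are 6842 bases apart. Gm42756, an antisense gene that overlaps Gm43089 on the plus strand and has counts, had a log2 change of -0.032 (adjusted p = 1). A processed pseudogene resembles its parent gene and Fbxw23 has close relatives, so the placement of their reads is uncertain, and an exact 0 in such a table can be a failed estimate.

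**Figure D5:**
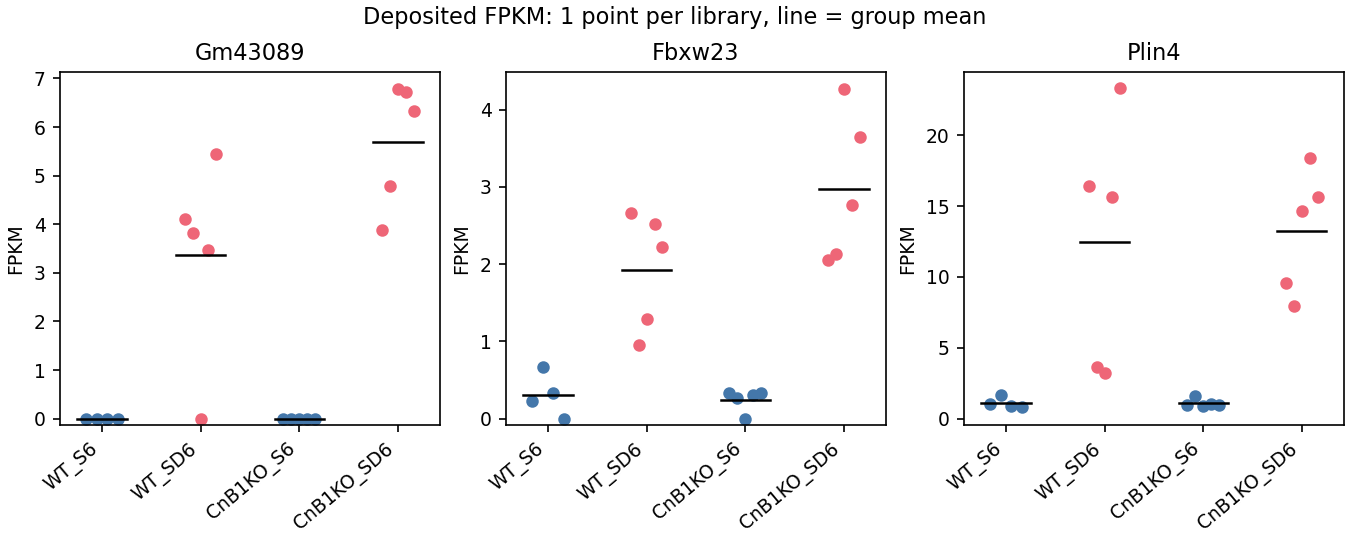
Deposited FPKM per library in the 4 groups for Gm43089, Fbxw23 and, for comparison, Plin4, with lines at group means. Gm43089 is at 0 in all 9 slept libraries and above 0 in 9 of the 10 deprived libraries.

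Of the 100 genes 12 carry provisional symbols. The largest rises among them were those of the processed pseudogene Gm19963 (3.05-fold, adjusted p = 0.00227) and of Gm19439, which went from 14.02, 13.9, 17.5, 10.5 and 18.6 CPM to 20.1, 32.5, 50.8, 42.8 and 39.02 CPM without overlap (2.51-fold, adjusted p = 0.00607). The largest falls were those of Gm36855, a long intergenic non-coding RNA gene that went from 8.81, 10.6, 8.46, 8.298 and 11.1 CPM to 2.78, 5.59, 4.05, 3.91 and 3.38 CPM (2.37-fold lower, adjusted p = 0.00237), and of Gm34256 (2.05-fold lower, adjusted p = 0.00989). Gm44421, which starts 3227 bases from Klf15 on the same strand, rose 2.003-fold from 3.76, 4.97, 6.005, 4.15 and 1.87 CPM to 7.36, 7.88, 9.84, 7.64 and 7.76 CPM (adjusted p = 0.0309). It and Klf15 were the only 2 of the 100 genes within 50 kb of each other. For 39 of the 100 genes the annotation has an overlapping gene on the opposite strand, and for 48 on either strand. The shares over all genes were not computed. Without strand information, reads inside the shared stretch cannot be told apart. That stretch was 17 bases for Plin4, 737 bases for Dbp and the whole gene, 61434 bases, for Ednra. Npas3 shares 6495 and 10128 bases with 2 antisense genes. On the same strand Slc5a3 lies wholly, over 29152 bases, inside Mrps6, which had a log2 change of 0.21 (edgeR adjusted p = 0.452). Armcx5 likewise lies wholly, over 4590 bases, inside Gprasp1, and Phyhd1 shares 15946 bases with Gm28035.

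The calls differed in how many fits they held in. Sgk1, Slc38a2, Slc5a3, Fam83d, Map3k6, Hif3a, Sult1a1, Hspa1b, Sdf2l1, Opalin, Npas3, Cirbp and Gm15446 were among the 36 genes that passed in every fit that could test them. Dnajc3 and Sfrp5 passed in 4, Pspc1 in 6, Ccn2 in 7 and Ednra in 9 of the 19 fits that each left out a library. Zbtb16 passed in 15 of them, with a highest adjusted p of 0.058 over all alternatives. On the deposited FPKM of the 10 CnB1KO libraries, 49 of the 100 genes passed in limma. Abcc6, Dbp, Parn, Xylt2, Per1 and Ednra were among those that did not, with Dbp close to the threshold (highest adjusted p = 0.0538).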

How the data were processed

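Poly(A) RNA of locus coeruleus pieces was sequenced on a HiSeq2500 from an unstranded preparation, per the labels' protocols. The deposited counts are whole reads per gene, and the authors' FPKM stand in a separate table for each group, with a column for each library. HTSeq 2.0.4 and StringTie 2.2.1 are named, beside Trim Galore 0.6.10, Picard 2.18.29, SAMtools 1.6 and the build GRCm38, per the submitters' processing notes. For the aligner and the annotation: not given in the sources used here.

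Counts were fitted in edgeR 4.0.16 (R 4.3.3) by the quasi-likelihood test with TMM scaling, filterByExpr and 4 group means over all 19 libraries. Tests were 2-sided with Benjamini-Hochberg adjustment and a threshold of 0.05. The SE of an edgeR log2 change is approximate, being its size divided by the square root of the F statistic of the test. The filter kept all 14443 genes of the deposited counts, in which the lowest summed count of a gene was 381, so scarcer transcripts were not tested there. FPKM of symbols without a count were tested with limma 3.58.1 on log2(FPKM + 0.1), with a mean of at least 1 FPKM. No fold is given against libraries listed at 0. Pairs of replicates differed by more than sampling noise (chi-square per degree of freedom 1.63 to 7.44), so none was merged. Scripts were tested on simulated counts.

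Named were genes that passed, with values per library for the 12 largest rises and 10 largest falls with a mean log2 CPM of at least 1 and an approved symbol, all passing members of a list or else up to 3 with the smallest p, and a few fixed genes. Other genes (Derl3, Nr3c1, Notch3, Hspa8, Hapln2, Ninj2, Plin3, Ttr, Kl and the like) were chosen after their values were seen. The members and lists were chosen with earlier results of these data known. Alternatives were other scalings, filters, DESeq2 1.42.0, limma voom, covariates, FPKM and leaving out each library. The values of 1 gene that passed are not reported here.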

Additional observations from a re-analysis of the deposited data

Results flagged for a closer look

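Among 316 sets of 5 values, 20 (6.33%) had 1 library far from the other 4, and chance gives about 5%. All are CPM.

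Library 13, the shallowest slept library, accounted for 9. It was low for Arid5b (70.42), Npas3 (57.04) and Vcan (46.95), and high for Fam83d (2.184), Ppp3r1 (152.3), Pspc1 (64.14), Rpl23 (54.32), Slc6a4 (42.58) and Tph2 (62.78). Tph2 and Slc6a4 mark serotonergic neurons, and the next slept libraries stood at 21.3 and 13.7.

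Library 16 accounted for 5 in the deprived group. It was high for Fos (37.43, next 15.6), Pax6 (58.69), Rbm3 (48.06) and Tph2 (25.5), and low for Atp10a (40.38). Library 18 was high for Kl (106.2, next 15.8) and Gm44421 (9.842). Library 12 was low for Gal (19.22) and high for Plcb1 (148.3), library 14 was low for Nfat5 (299.3), and library 15 was high for Sgk1 (65.03).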

How the results depend on the processing

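The main counts were 100 genes, 67 risen and 33 fallen. RLE factors, upper quartile scaling, no filter, a mean count of at least 100, voom and library total as covariate gave 68 to 134 genes. DESeq2 gave 160, with 65 fallen. Covariates for oligodendrocyte, noradrenergic and cerebellar genes gave 153, 162 and 162, with 62, 66 and 65 fallen. The CnB1KO libraries alone gave 70, with 51 risen and 19 fallen. The FPKM fits gave 59 and 61, each with 11 fallen. Without 1 library the counts ran from 54 to 134 in all, 33 to 83 risen and 17 to 51 fallen. Leaving out slept library 11 gave 38 risen and 17 fallen, 14 gave 42 and 20, deprived library 18 gave 33 and 21. Fallen genes were 19 without library 12 and 51 without control library 8, and risen genes were 43 without library 15. The difference between genotypes called 0 to 1 genes, 1 with DESeq2 and without library 11. Symbols without a count gave 1 to 2 without 1 library, 2 with a pseudocount of 1 and 3 without the FPKM filter, where Fbxw23 did not pass (adjusted p = 0.0607) and Aunip and Mir7006 did. The cause of these shifts was not tested.

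No called gene reversed. Small log2 changes that did not pass changed sign, namely Arc with the oligodendrocyte covariate (-0.008), Dbh with the noradrenergic (-0.008) and cerebellar (-0.045) covariates, Th with the cerebellar covariate (-0.036) and Slc6a2 on FPKM (0.001 and 0). Without 1 library the values ran from -0.047 to 0.078 for Arc, -0.082 to 0.117 for Dbh, -0.032 to 0.125 for Th, -0.128 to 0.054 for Slc6a2, -0.657 to 0.084 for Pax6 and -0.32 to 0.008 for Alas2.

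No paired analysis was possible because the columns carry library numbers, not the replicate numbers of the labels. Totals of 3887298 to 7903253 counts per library and 5 libraries a group (4 in WT_S6) limit the precision.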
